A study of Mus musculus with 24 samples.

Results

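The immediate-early genes followed here are 10 genes listed by name, Fos, Fosb, Junb, Atf3, Egr1, Egr2, Nr4a1, Nr4a3, Klf6 and Ier3, of 54532 genes in each count table. Each symbol matched 1 Ensembl gene in every library. All encode transcription factors except Ier3, an immediate-early gene whose product is a stress-inducible regulator of cell survival that does not bind DNA. RNA was measured by sequencing in the left gastrocnemius, a calf muscle, of wild-type (WT) C57/BL6 mice, in 24 libraries that form 6 groups of 4, with the same 3 groups in females and in males. Control mice (Sed + pH 7.2) were sedentary and received a pair of 20 μl saline injections of pH 7.2 into that muscle, 5 days apart. Sedentary pain mice (Sed + pH 5.0) received pH 5.0 injections on the same schedule, the second of them right after 6 minutes of electrically evoked contractions of the muscle. Active pain mice (Ex + pH 5.0) received the same pain model after 8 weeks with access to a running wheel. All libraries carry the label 24hr. Each pain group therefore differs from its controls in acid and, as the protocol describes the groups, in contractions as well, and active pain differs from control in running too. The study set both pain groups of each sex against the pain-free controls of that sex.

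Immediate-early genes are transcribed within minutes of a stimulus by factors that already sit in the cell, such as CREB, the serum response factor with its ELK partners, and STAT proteins, and their RNAs usually decay quickly. The proteins of the Fos, Jun and ATF families pair as AP-1 dimers, the EGR proteins are zinc-finger activators that also switch on their own NAB repressors, and the NR4A proteins are nuclear receptors that act without a known ligand. In skeletal muscle several of them are known to respond to contraction and injury, and Junb, Ier3 and Klf6 are also expressed in leukocytes.

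Promoter sequence is shown for 5 of the genes: for Junb, Ier3 and Atf3, whose RNA changed most in female sedentary pain against control, and for Nr4a1 and Nr4a3, whose RNA did not pass the test there. Among the 9 genes with a promoter window, Nr4a1 and Nr4a3 hold the most copies of the motif described here. The 250 bases upstream of the RefSeq transcript start (GRCm38.p6) are printed 5′ to 3′ on the gene's strand, in lower case, with each copy of TGACG, the core of the site bound by CREB and ATF proteins, in capitals on either strand (CGTCA where it lies on the other strand). The stretches are chr8:84978749-84978998 on the minus strand for Junb, chr17:35821463-35821712 on the plus strand for Ier3, chr1:191183334-191183583 on the minus strand for Atf3, chr15:101266596-101266845 on the plus strand for Nr4a1 and chr4:48045055-48045304 on the plus strand for Nr4a3.
Junb: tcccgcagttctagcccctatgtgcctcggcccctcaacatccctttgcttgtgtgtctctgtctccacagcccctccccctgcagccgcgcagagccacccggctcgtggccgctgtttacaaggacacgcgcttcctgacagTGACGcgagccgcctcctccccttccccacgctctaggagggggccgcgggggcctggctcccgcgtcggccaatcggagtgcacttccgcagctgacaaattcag
Ier3: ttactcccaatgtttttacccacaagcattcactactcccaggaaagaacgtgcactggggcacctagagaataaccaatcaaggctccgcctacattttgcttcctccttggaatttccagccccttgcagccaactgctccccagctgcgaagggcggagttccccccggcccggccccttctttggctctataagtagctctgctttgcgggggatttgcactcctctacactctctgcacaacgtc
Atf3: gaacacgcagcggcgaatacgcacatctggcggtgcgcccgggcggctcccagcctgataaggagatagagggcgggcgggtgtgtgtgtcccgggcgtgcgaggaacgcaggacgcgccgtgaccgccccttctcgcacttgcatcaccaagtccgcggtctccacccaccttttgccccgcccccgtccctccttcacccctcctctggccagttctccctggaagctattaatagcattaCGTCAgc
Nr4a1: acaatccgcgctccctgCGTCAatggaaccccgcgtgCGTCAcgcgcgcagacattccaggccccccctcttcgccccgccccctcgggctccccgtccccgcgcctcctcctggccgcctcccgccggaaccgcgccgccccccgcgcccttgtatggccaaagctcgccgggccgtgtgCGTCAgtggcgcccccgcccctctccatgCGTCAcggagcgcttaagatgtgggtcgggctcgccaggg
Nr4a3: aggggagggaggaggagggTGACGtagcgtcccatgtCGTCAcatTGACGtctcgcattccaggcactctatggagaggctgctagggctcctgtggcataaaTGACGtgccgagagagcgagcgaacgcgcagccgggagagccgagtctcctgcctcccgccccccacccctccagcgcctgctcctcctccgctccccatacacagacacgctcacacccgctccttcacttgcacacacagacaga

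RefSeq windows of 300 bases (250 before and 50 after a start) were matched for 9 of the 10 genes, all but Egr1, and searched on both strands. The search says nothing on Egr1 or on sites outside these windows. TGACG was present in the windows of 7 of the 9 genes, with 4 copies each in Nr4a1 and Nr4a3, 2 in Fos, and 1 each in Fosb, Junb and Atf3. Egr2 has several windows, some with 2 copies and some with none. It was absent from the windows of Ier3 and Klf6. Counted by window, 9 of the 13 windows of these genes held TGACG, beside 20.8% of all 32841 RefSeq windows of this length. The complete palindrome TGACGTCA, which contains TGACG, was in none of the 9 genes' windows and in 1.79% of all windows, and the AP-1 site TGANTCA was likewise in none and in 7.81%. The EGR site GCGNGGGCG was in 2 of the 13 windows, those of Fosb and Nr4a1, and in 5.55% of all. The CArG box bound by the serum response factor was in 4 of the 13 windows, all of them of Egr2, and in 1.63% of all. A match describes letters in these windows, not a bound site.

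Libraries held 17612139 to 34039699 gene counts. Levels are given as CPM, counts brought to a common library total, which was first scaled by TMM, a factor that evens out differences in composition. The muscle label matched its markers: 12 fibre genes such as Ckm and Acta1 summed to 116653 to 248298 CPM in every library. The first principal component of the log2 CPM values held 57.4% of the variance. On it, male sedentary pain replicate 1 lay at 93.3 while the other 3 of its group lay between -51.0 and -26.1, and male active pain replicate 2 lay at 50.5 while the other 3 lay between -42.1 and -6.16. The male comparisons are therefore given with and without these 2 libraries. In females the sedentary pain libraries lay between 28.6 and 152.6, and active pain replicate 3 lay at 50.8 while the other 3 lay between -18.03 and 7.07.

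Per kilobase of exon, so that genes can be compared, the level of Nr4a1 stood apart in female controls at 41.1 ± 9.999 CPM per kb (mean ± SD, n = 4, as for all group values below). Klf6 followed at 5.39 ± 1.83, Ier3 at 3.62 ± 0.88, Junb at 2.81 ± 0.48, Atf3 at 2.62 ± 1.10, Fos at 1.67 ± 0.91, Nr4a3 at 1.48 ± 0.79 and Egr1 at 1.36 ± 0.62 CPM per kb, and each of these neighbours overlapped the next over the animals. Egr2, at 0.227 ± 0.137, did not overlap Egr1, and Fosb, at 0.0478 ± 0.0225 CPM per kb, did not overlap Egr2. In female sedentary pain Junb reached 30.9 ± 22.6, Ier3 20.4 ± 17.7, Klf6 14.8 ± 6.4 and Atf3 12.98 ± 3.92 CPM per kb, and the range of Junb then overlapped that of Nr4a1 at 34.5 ± 9.5. Male controls ranked the genes in the same order apart from Egr1, which came above Nr4a3 there without being separate from it. In female active pain the order was again led by Nr4a1 at 48.9 ± 15.3 CPM per kb, with Klf6, Junb and Ier3 next at 6.52 ± 1.41, 6.18 ± 4.03 and 5.88 ± 2.92. Junb stood second in both male pain groups, at 19.2 ± 32.2 CPM per kb in sedentary pain and 7.73 ± 7.63 in active pain, with an SD above or close to its mean. Without the 1 library of each group that stands apart (n = 3) it was at 3.11 ± 0.51 and 3.93 ± 0.77 CPM per kb, and Klf6 stood second at 6.61 ± 1.10 and 6.74 ± 0.39.

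Sedentary females with muscle pain had higher RNA levels of 7 of the 10 genes than female controls: Junb, Ier3, Atf3, Fosb, Egr2, Egr1 and Klf6. The increases ran from 2.71-fold for Klf6 to 10.8-fold for Junb, and none of the 10 genes was lower by the test. DESeq2 called 8, these and Fos, beside 39.8% of all genes. The test was edgeR's quasi-likelihood test over the 12 female libraries, two-sided, with p-values adjusted by Benjamini-Hochberg over all 14511 genes tested and called at 0.05. In this comparison 33.5% of all genes tested were called, 19.6% higher and 13.9% lower, and the median log2 change was -0.02 over all genes against 1.498 over the 10. In 4 of the 10 genes (Junb, Ier3, Atf3 and Fosb) the groups did not overlap, as they did not in 26.3% of all genes. In a piece of whole muscle, a change in RNA per cell and a change in the number of cells of a type cannot be told apart.

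**Figure D1:**
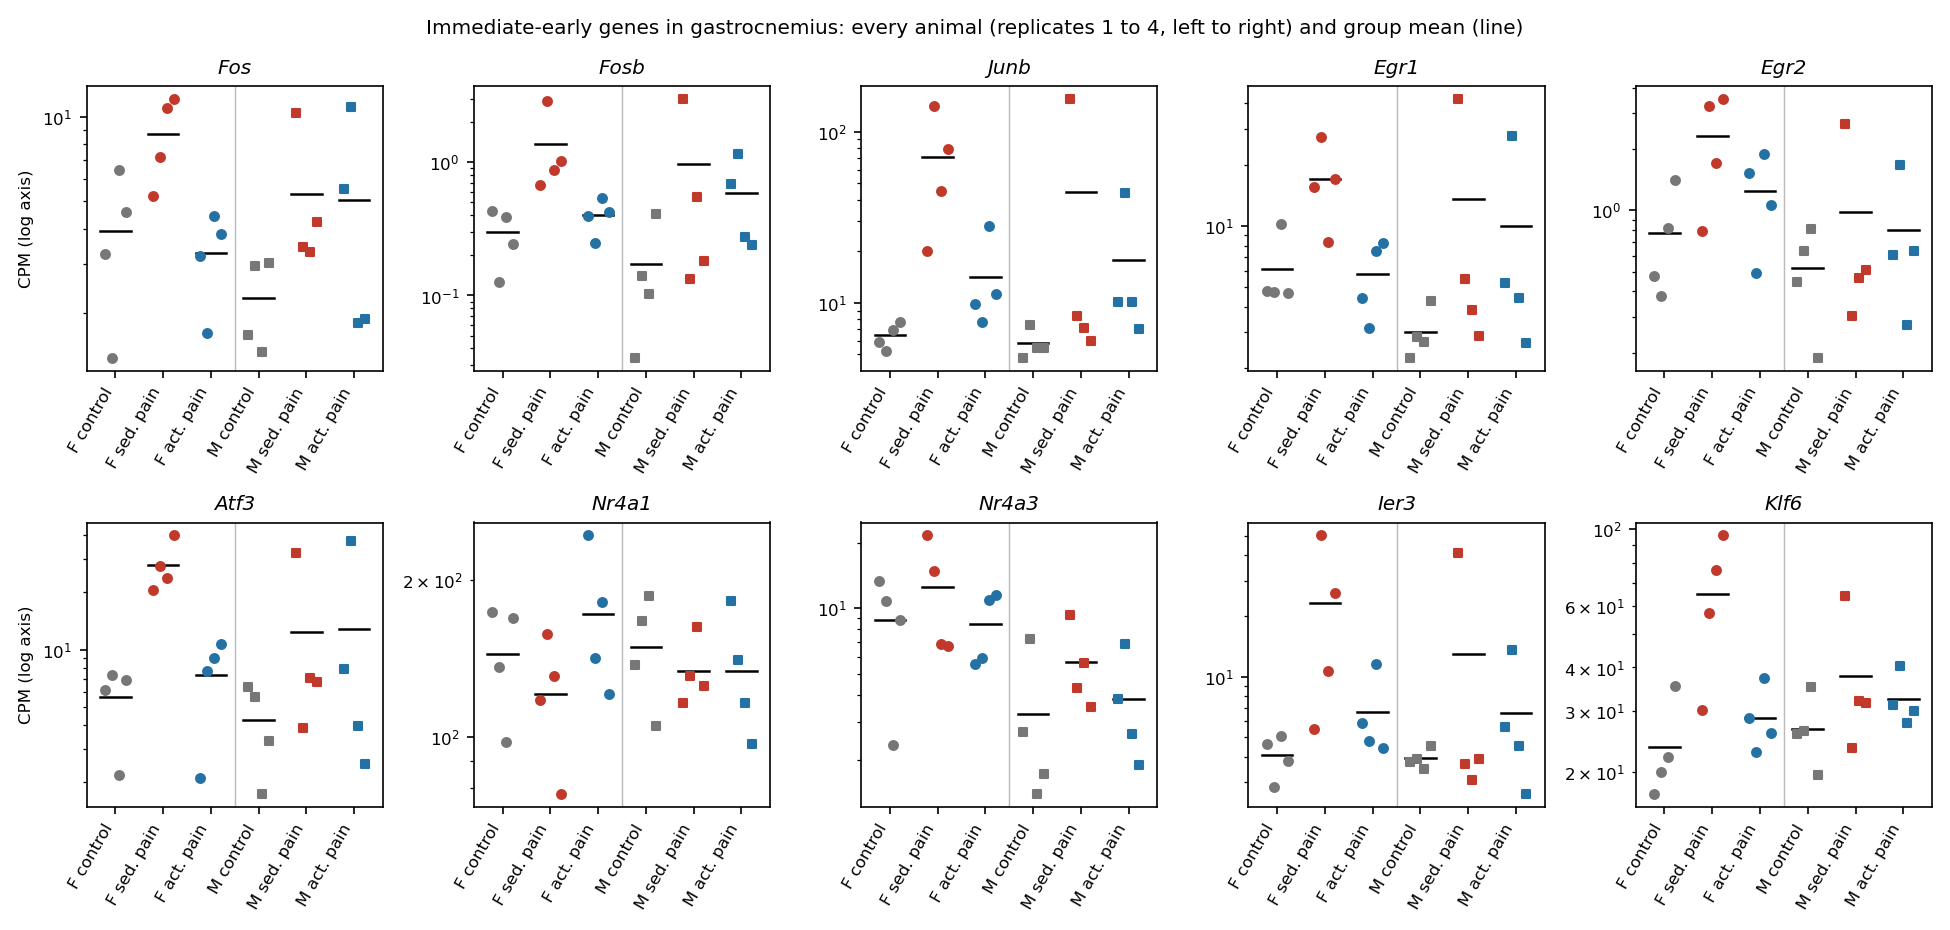
CPM of each gene in every animal, on a log axis scaled to each panel, with circles for females and squares for males, replicates 1 to 4 from left to right in each group and a line at the group mean. In the Junb panel the 4 female sedentary pain animals sit between 20.2 and 140.3 CPM, above all female controls, while 1 male animal at 155 CPM stands apart from the other 3 of its group.

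Among the AP-1 subunits, Junb (ENSMUSG00000052837, chr8:84974484-84978718, minus strand), a Jun family member that pairs with Fos proteins, had 5.94, 5.26, 6.91 and 7.76 CPM in the 4 female controls, in the order of replicates 1 to 4. In female sedentary pain it had 20.2, 140.3, 44.8 and 79.6 CPM. Every pain animal was above every control, and replicate 2 was highest. The log2 fold change was 3.43 ± 0.57 (SE), with a 95% interval of 2.19 to 4.67 and an adjusted p of 0.00295 (edgeR). The last 351 bases of the Junb gene model (chr8:84974484-84974834) overlap Prdx2, a peroxiredoxin gene on the other strand, and whether strand was used in the counting is not given in the sources used here. Reads there could not be told apart without strand; Prdx2 itself was at 108.5 ± 19.7 CPM in the female control group and 140.3 ± 41.0 in female sedentary pain (log2 change 0.35 ± 0.21, adjusted p 0.191).

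Atf3 (ENSMUSG00000026628, chr1:191170296-191218039, minus strand), a stress-induced member of the ATF family that can pair with Jun proteins and often represses, had 6.15, 7.32, 2.19 and 6.94 CPM in female controls. In female sedentary pain the values were 20.6, 27.4, 23.9 and 39.9 CPM. The lowest pain animal was above the highest control, and the spread between pain animals was narrower than for Junb. Atf3 rose 4.88-fold, a log2 change of 2.29 ± 0.47 (adjusted p 0.00582). Fosb (ENSMUSG00000003545, chr7:19302696-19310051, minus strand), a Fos family subunit, was scarce, with 1 to 74 counts per library over the study, and went from 0.433, 0.126, 0.391 and 0.245 CPM in female controls to 0.681, 2.86, 0.876 and 1.02 CPM. These groups did not overlap either, and the log2 change was 2.12 ± 0.51 (adjusted p 0.0111). Fos (ENSMUSG00000021250, chr12:85473890-85477273, plus strand), the partner of Jun proteins that gives AP-1 its classic form, had 3.25, 1.39, 6.45 and 4.59 CPM in the female control group and 5.22, 7.18, 10.8 and 11.6 CPM in female sedentary pain. Of the pain animals 3 of 4 were above every control, and its log2 change of 1.13 ± 0.43 did not pass the adjusted threshold (unadjusted p 0.0223, adjusted p 0.0602). With DESeq2, Fos passed at an adjusted p of 0.0254, and at 0.00853 with a block that parts replicates 1 and 2 from 3 and 4 (the library-number block). It also passed without female sedentary pain replicate 1 (0.0287), without control replicate 3 (0.0323) or without active pain replicate 2 (0.0494).

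Both EGR genes among the 10, which encode zinc-finger activators, passed. Egr1 (ENSMUSG00000038418, chr18:34859823-34864984, plus strand) had 4.77, 4.75, 10.3 and 4.68 CPM in the female control group and 15.5, 27.4, 8.37 and 17.1 CPM in female sedentary pain. Pain replicate 3 lay below control replicate 3, and the other 3 pain animals were above every control. The log2 change was 1.46 ± 0.41 (adjusted p 0.0214). Egr1 lost its call without sedentary pain replicate 2 (log2 change 1.15, adjusted p 0.0563) and without control replicate 1, 2 or 4 (adjusted p 0.0559, 0.0584 and 0.058), and in a fit of all 24 libraries (0.118). Egr2 (ENSMUSG00000037868, chr10:67535475-67542188, plus strand), known for its part in myelination, had 6 to 100 counts per library. It went from 0.477, 0.379, 0.820 and 1.41 CPM to 0.794, 3.27, 1.72 and 3.53 CPM. The groups overlapped, with pain replicate 1 at control level. Its log2 change of 1.54 ± 0.55 had an adjusted p of 0.0486, just under the threshold, and kept the call in 3 of the 12 fits that left out 1 library (adjusted p 0.0136 to 0.139): those without active pain replicate 2, sedentary pain replicate 1 or control replicate 4. Egr2 also lost the call with no filter on low counts, with a block by replicate number, with a correction for GC content and length, and in fits of the 2 groups alone or of all 24 libraries (adjusted p 0.0591 to 0.072). It was not called with 1 surrogate variable, within replicates 1 and 2 or within replicates 3 and 4 either.

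Klf6 (ENSMUSG00000000078, chr13:5861482-5870394, plus strand), a zinc-finger factor linked to tissue repair and to inflammatory activation of macrophages, had 17.2, 20.03, 22.03 and 35.3 CPM in the female control group and 30.2, 57.4, 76.6 and 96.1 CPM in female sedentary pain. Replicates 2 to 4 of the pain group were above every control and replicate 1 was not. Klf6 rose 2.71-fold, a log2 change of 1.44 ± 0.32 (adjusted p 0.00846). Ier3 (ENSMUSG00000003541, chr17:35821684-35822923, plus strand), which dampens stress-induced cell death, had 4.64, 2.82, 5.08 and 3.82 CPM in controls and 5.48, 50.2, 10.7 and 26.1 CPM in pain. Every pain animal was above every control, although replicate 1 was so by a small margin and replicate 2 stood highest. The log2 change of Ier3 was 2.47 ± 0.59 (adjusted p 0.0108).

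The nuclear receptors did not pass the test. Nr4a1 (ENSMUSG00000023034, chr15:101254269-101274795, plus strand), which in muscle is known as a regulator of glucose and lipid use, had 174, 136, 97.9 and 169 CPM in the female control group and 118, 158, 131 and 77.9 CPM in female sedentary pain. These ranges overlapped, and the log2 change was -0.27 ± 0.26 with a 95% interval of -0.84 to 0.30 (adjusted p 0.428). Nr4a3 (ENSMUSG00000028341, chr4:48045153-48086447, plus strand), known to respond to exercise in muscle, had 13.3, 10.9, 2.34 and 8.83 CPM and 21.7, 14.9, 6.84 and 6.68 CPM in the same groups. Pain replicates 1 and 2 were above every control and replicates 3 and 4 were within the control range. The log2 change of Nr4a3 was 0.49 ± 0.51, with an interval of -0.62 to 1.60 (adjusted p 0.462).

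In female sedentary pain, Junb, Atf3, Fosb, Ier3 and Klf6 kept their calls in all 12 fits that left out 1 library, in which 5 to 8 of the 10 genes were called. No gene was called when 1 surrogate variable, an axis of unlabelled variation estimated from the data, was added (4 genes at an unadjusted p under 0.05), a fit that called 0.786% of all genes. The log2 changes in it were 2.05 for Junb, 1.91 for Atf3, 1.76 for Fosb, 1.22 for Ier3, 1.11 for Egr1, 0.21 for Klf6 and -0.14 for Egr2. Library names carry numbers that are 20 or less in replicates 1 and 2 and 25 or more in replicates 3 and 4. Nothing says what the numbers stand for. Within replicates 1 and 2 the log2 change of Junb was 3.83 and 1 gene (Egr1) was called, beside 1.67% of all genes. Within replicates 3 and 4 it was 3.07 and 5 genes (Fos, Junb, Atf3, Ier3 and Klf6) were called, beside 22.4%.

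**Figure D2:**
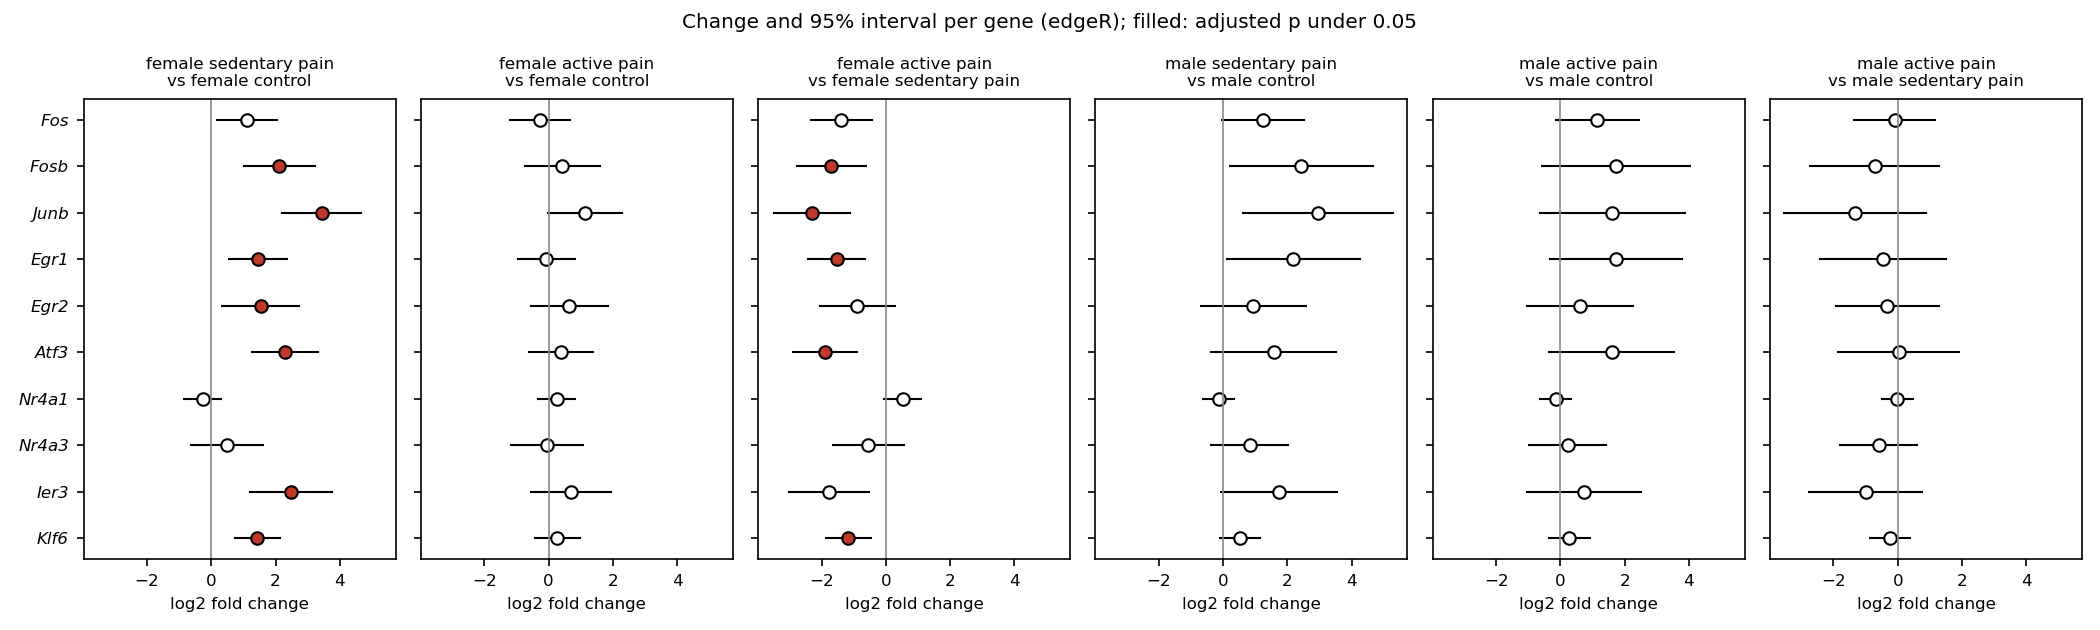
Log2 fold change of each gene (points) with its 95% interval (lines) in the 6 comparisons within a sex; filled points have an adjusted p under 0.05. Filled points are 7 of 10 in female sedentary pain against control, 5 of 10 in female active against sedentary pain, and none in the other panels; the interval for Junb runs over 0.60 to 5.30 in male and 2.19 to 4.67 in female sedentary pain.

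Physically active females with pain showed no called difference from female controls in any of the 10 genes, by edgeR (0 at an unadjusted p under 0.05) or by DESeq2 (0 adjusted, 1 unadjusted, beside 0.908% of all genes). Of all 14511 genes tested with edgeR 0% were called and 7.03% had an unadjusted p under 0.05. The values of Junb in active pain were 9.90, 7.77, 28.0 and 11.3 CPM, all above the highest control, which held for 5.44% of all genes in either direction. Its log2 change was 1.13 ± 0.53, with an interval of -0.02 to 2.29 that reaches from no change to a several-fold increase (adjusted p 0.718). The other 9 genes overlapped with the controls. Their log2 changes ran from -0.26 for Fos to 0.70 for Ier3, whose interval of -0.54 to 1.94 leaves room for an increase of the size seen for Klf6 in sedentary pain. Without active pain replicate 3, which stands apart on the first principal component, the log2 change of Junb was 0.56 and edgeR called 0 of the 10 genes (0 unadjusted). The median over the 10 genes was 0.33 and over all genes 0.00.

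Set directly against sedentary pain, active pain females had lower levels of 5 of the 10 genes: Junb, Atf3, Fosb, Egr1 and Klf6. In this comparison 11.9% of all genes were called, 2.51% higher and 9.41% lower. This comparison and the one with controls share the sedentary pain animals and are not independent. Beside these genes, 11 of 14 macrophage and monocyte markers and 2 of 3 tested T, NK and B cell markers were lower and 0 of 8 tested neutrophil markers were called (1 unadjusted), and the mitochondrial share was 8.77 ± 2.38% in active against 5.17 ± 2.41% in sedentary pain. The part of these shifts was not tested. Junb fell by 2.30 ± 0.54 on the log2 scale, 4.93-fold, from 71.2 ± 52.1 to 14.2 ± 9.27 CPM (adjusted p 0.0328). Active pain replicate 3, at 28.0 CPM, was above sedentary pain replicate 1, and the other 3 active animals were below every sedentary one.

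Atf3 had 2.11, 7.66, 9.05 and 10.6 CPM in female active pain, all below the sedentary pain range, and its log2 change was -1.90 ± 0.46 (adjusted p 0.0328). Fosb had 0.392, 0.247, 0.539 and 0.426 CPM, without overlap, and a log2 change of -1.70 ± 0.49 (adjusted p 0.0453). Egr1 had 4.41, 3.14, 7.51 and 8.24 CPM, with replicate 4 just under the lowest sedentary pain animal, and a log2 change of -1.53 ± 0.41 (adjusted p 0.0375). In 4 of the 10 genes the groups did not overlap, Fos being the fourth, as in 11.8% of all genes. Klf6 had 28.5, 22.8, 37.3 and 25.9 CPM, with replicate 3 above the lowest sedentary animal, and a log2 change of -1.17 ± 0.32 (adjusted p 0.0404).

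Fos had 3.18, 1.70, 4.43 and 3.83 CPM in female active pain, each below every sedentary pain animal, yet its log2 change of -1.39 ± 0.43 had an adjusted p of 0.0562. Ier3 had 5.88, 4.80, 11.5 and 4.41 CPM, with replicates 1 and 3 inside the sedentary range, and missed the threshold as well (-1.77 ± 0.57, adjusted p 0.0611). DESeq2 called both, 7 genes in all, beside 20.8% of all genes, and Fos also passed with the library-number block (0.00841). Egr2 (-0.89 ± 0.54, adjusted p 0.261), Nr4a3 (-0.54 ± 0.51, 0.465) and Nr4a1 (0.52 ± 0.26, 0.188) did not pass by either tool. Nr4a1 was the gene with a positive value here, at 243, 142, 182 and 121 CPM. The median log2 change of the 10 genes was -1.46 against 0.01 over all genes.

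Without active pain replicate 3 the count was also 5, with Ier3 called (adjusted p 0.0467) and Fosb not (0.054). The 5 calls with all animals lay close to the threshold, with adjusted p between 0.0328 and 0.0453. The count was 0 without any 1 of active pain replicates 1, 2 and 4 or sedentary pain replicates 3 and 4, fits that called 0 to 3 of all genes. It was 3 without sedentary pain replicate 2 or control replicate 3, and 4 to 7 without each of the other 5 libraries, fits that called 1171 to 4316 of all genes. Junb without active pain replicate 2, for example, had a log2 change of -2.13 and an adjusted p of 0.101. The count was also 0 with no filter on low counts, where 0.667% of all genes were called, and with 1 surrogate variable, in a fit of these 2 groups alone and within replicates 1 and 2, where 0% were. It was 1 (Klf6) in a fit of all 24 libraries, beside 15.7% of all genes, and 2 (Fos and Klf6) within replicates 3 and 4, beside 15.0%. In the fit of 2 groups 7 of the 10 genes had an unadjusted p under 0.05.

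In males, no gene of the 10 was called between sedentary pain and control with edgeR (3 at an unadjusted p under 0.05, Junb, Fosb and Egr1). DESeq2 called 0 of the 7 genes for which it gave a p in males (2 unadjusted), beside 1.90% of all genes. It gave none for Junb, Egr1 and Ier3. Of all 14404 genes tested with edgeR in males 0% were called and 8.84% had an unadjusted p under 0.05. Group means were nevertheless above control for 9 of the 10 genes, and each of these 9 log2 changes was smaller or below 0 without replicate 1, where edgeR called 0 of the 10 (0 unadjusted). Replicate 1 was the highest of its group for these 9 genes, so the direction of that shift was fixed in advance and only its size is informative. Junb had 4.78, 7.41, 5.46 and 5.47 CPM in male controls and 155, 8.33, 7.10 and 6.01 CPM in male sedentary pain. Replicate 1 was far above the other 3, which lay in or just above the control range. The log2 change was 2.95 ± 1.07 with an interval of 0.60 to 5.30 (unadjusted p 0.0181, adjusted p 0.435), and it was 0.32 without replicate 1.

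The same animal was the highest of its group for 9 of the 10 genes, all but Nr4a1. Egr1 had 2.25, 2.83, 2.68 and 4.28 CPM in male controls and 42.0, 5.46, 3.84 and 2.88 CPM in male sedentary pain, and its log2 change of 2.18 ± 0.95 (adjusted p 0.538) became 0.45 without that animal. Ier3 stood at 3.79, 3.92, 3.49 and 4.53 CPM and 41.3, 3.68, 3.08 and 3.89 CPM. Replicates 2 and 4 were within the control range and replicate 3 just below it, and the log2 change went from 1.74 ± 0.82 to -0.13. Atf3, at 6.35, 5.63, 1.73 and 3.30 CPM in controls and 32.1, 3.88, 7.05 and 6.73 CPM in pain, was above every control in 3 of 4 animals, with a log2 change of 1.57 ± 0.89 and 0.49 without replicate 1. Fosb went from 2.44 to 0.68, Egr2 from 0.93 to -0.27, Klf6 from 0.52 to 0.14 and Nr4a3 from 0.83 to 0.48, while Nr4a1 was -0.14 with and -0.08 without that animal.

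Fos was the exception in that all 4 male sedentary pain animals exceeded all 4 male controls. It had 1.67, 2.94, 1.46 and 3.02 CPM in controls and 10.3, 3.45, 3.29 and 4.22 CPM in pain, and the lowest pain value was close to the highest control value. Such separation held for 8.07% of all genes in either direction. Its log2 change was 1.242 ± 0.59 (interval -0.04 to 2.53, adjusted p 0.574), and 0.70 without replicate 1.

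**Figure D3:**
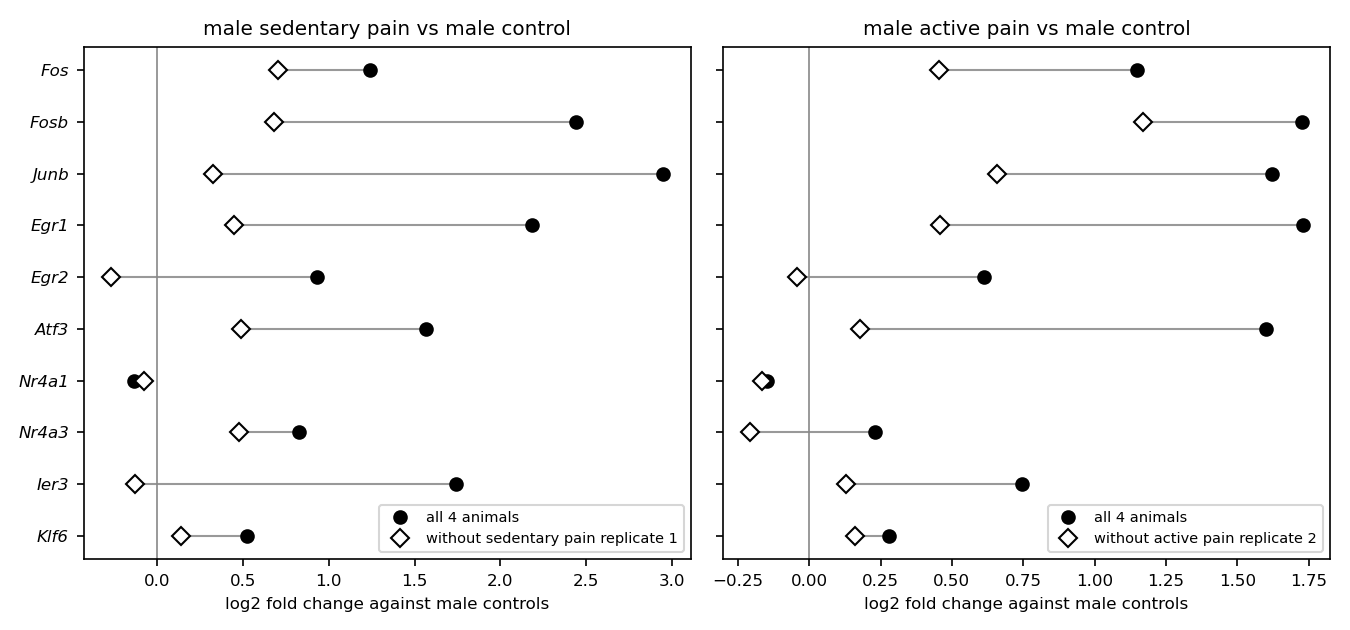
Log2 fold change of each gene against male controls in sedentary pain (left) and active pain (right), with all 4 animals of the pain group (filled circles) and without the 1 animal that stands apart (open diamonds: without sedentary pain replicate 1 on the left, without active pain replicate 2 on the right); each panel has its own axis. The value for Junb moves from 2.95 to 0.32 on the left and from 1.62 to 0.66 on the right.

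Active pain in males showed a like pattern with a different animal. No gene of the 10 was called against male controls by edgeR (0 at an unadjusted p under 0.05), beside 0% of all genes and 7.25% at an unadjusted p under 0.05. DESeq2 called 0 of the 7 it tested (2 unadjusted), beside 0.892% of all genes. Replicate 2 was highest for 9 of the 10 genes, again all but Nr4a1, so that for these 9 a lower log2 change without it was fixed in advance. Junb had 10.1, 44.0, 10.1 and 7.005 CPM, with replicate 2 highest and replicate 4 within the control range. Its log2 change was 1.62 ± 1.03 (interval -0.63 to 3.87, adjusted p 0.634) and 0.66 without replicate 2.

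Egr1, at 5.21, 27.8, 4.45 and 2.65 CPM in male active pain, went from a log2 change of 1.73 to 0.46 without that animal, and Atf3, at 7.88, 37.2, 3.93 and 2.49 CPM, from 1.60 to 0.18. Fos had 5.56, 10.9, 1.85 and 1.90 CPM, with replicates 1 and 2 above the controls and replicates 3 and 4 among them, and went from 1.15 to 0.45. Without replicate 2, Fosb went from 1.73 to 1.17, Ier3 from 0.74 to 0.13, Klf6 from 0.28 to 0.16, Egr2 from 0.61 to -0.04 and Nr4a3 from 0.23 to -0.21, and Nr4a1 stayed near -0.15 at -0.16. No gene of the 10 had groups that did not overlap, against 10.4% of all genes. Between active and sedentary pain in males edgeR called 0 of the 10 genes (0 unadjusted) and DESeq2 0 of the 7 it tested, beside 0% of all genes with either tool and, with edgeR, 0.840% at an unadjusted p under 0.05, in a comparison whose groups each hold 1 of the 2 animals that stand apart. The log2 change, active minus sedentary, was -1.33 for Junb, -0.99 for Ier3 and -0.46 for Egr1 with all animals. Without both animals it was 0.34, 0.26 and 0.02, without sedentary pain replicate 1 alone 1.30, 0.87 and 1.28, and without active pain replicate 2 alone -2.29, -1.61 and -1.73. Over the 10 genes it ran from -1.33 to 0.03 with all animals and from -0.68 to 0.50 without both.

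To compare the sexes, the male change minus the female change was tested in a fit of all 24 libraries over 15103 genes. For sedentary pain against control edgeR called 0 of the 10 genes (1 unadjusted, Klf6) and DESeq2 0 (0.0994% of all genes), beside, with edgeR, 0% of all genes and 9.57% at an unadjusted p under 0.05. For active pain against control it called 0 (0 unadjusted; DESeq2 0, and 0.0199% of all genes), beside 0% and 2.03%. For active against sedentary pain it called 0 (1 unadjusted, Klf6; DESeq2 0, and 0.736% of all genes), beside 0% and 14.7%. Klf6 differed by -0.95 ± 0.45 between males and females in sedentary pain (log2, male minus female, interval -1.89 to -0.01, unadjusted p 0.0471, adjusted p 0.516), so that the 2 responses were not shown to differ. The corresponding difference for Junb was -0.52 ± 1.19, with an interval of -3.01 to 1.96 (adjusted p 0.887), and that for Atf3 between active and sedentary pain was 1.97 ± 1.03 (-0.17 to 4.10, adjusted p 0.369). Without both male libraries that stand apart, an alternative chosen after seeing the data, Junb and Ier3 were called for sedentary pain, beside 3.85% of all genes, and Junb then differed by -3.10 on the log2 scale (adjusted p 0.0329). Without male sedentary pain replicate 1 alone, 0 of the 10 genes (4 unadjusted) and 0% of all genes were called for sedentary pain, with Junb at -3.15 (adjusted p 0.0674). Junb was called within replicates 3 and 4 (-2.83, adjusted p 0.0183), beside 8.51% of all genes. Again without male sedentary pain replicate 1 alone, Junb, Egr1, Atf3, Ier3 and Klf6 were called for the sex difference of active against sedentary pain, beside 14.1% of all genes, and Atf3 then differed by 3.04 (adjusted p 0.042), while without both of those male libraries 0 of the 10 (6 unadjusted) and 0% of all genes were called.

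Between male and female controls 0 of the 10 genes were called by edgeR (1 unadjusted), where 2.83% of all genes were, or by DESeq2, where 4.77% were. In Egr1 all 4 male controls, at 2.25 to 4.28 CPM, lay below all 4 female controls, at 4.68 to 10.3 CPM, as the groups did not overlap in 22.3% of all genes, and its log2 difference was -1.02 ± 0.75 (adjusted p 0.527). Nr4a3 had the lowest unadjusted p, with 2.70, 7.20, 1.39 and 1.73 CPM in male and 13.3, 10.9, 2.34 and 8.83 CPM in female controls. The ranges overlapped through female replicate 3, and the log2 difference, male minus female, was -1.44 ± 0.57 (unadjusted p 0.0189, adjusted p 0.219).

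**Figure D4:**
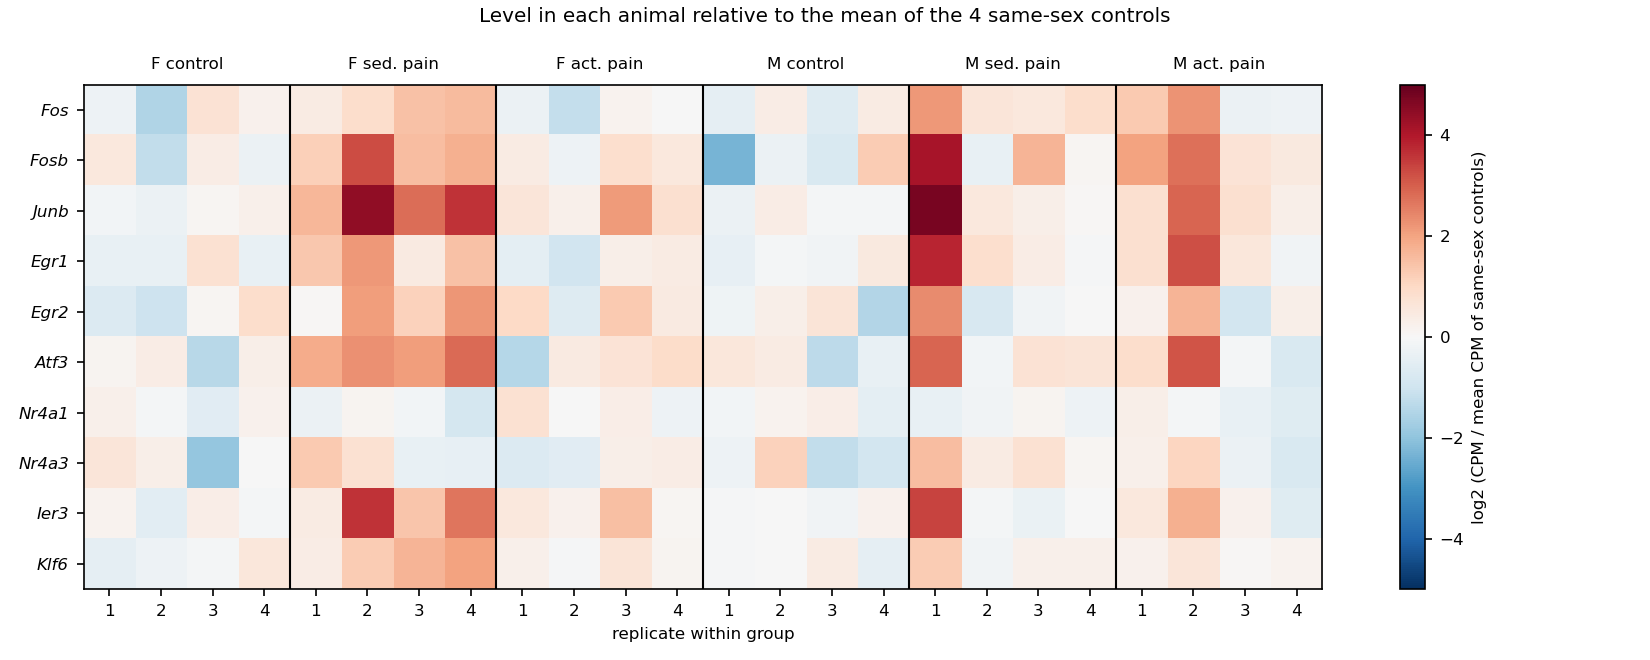
Level of each gene (rows) in each animal (columns, replicates 1 to 4 in each of the 6 groups) as log2 of its CPM over the mean CPM of the 4 controls of the same sex; red is higher, blue lower. The columns of male sedentary pain replicate 1 and male active pain replicate 2 are red in 9 of 10 rows, with Nr4a1 pale in both.

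Within groups the genes moved with the animal. With each gene's log2 CPM centred on the mean of its group, so that group differences were removed, and Fosb left out for its mean below 1 CPM, Pearson's r of a gene with the mean of the other 8 over the 24 libraries was 0.93 for Junb, 0.86 for Ier3, 0.81 for Egr1, 0.77 for Egr2, 0.70 for Atf3, 0.69 for Fos and 0.63 for Klf6. It was 0.39 for Nr4a3 and 0.06 for Nr4a1. All genes were read from the same libraries and share their depth and tissue composition, so the values are a description without a test. Without the 2 male animals that stand apart, over 22 libraries, r was 0.81 for Junb, 0.67 for Ier3 and 0.54 for Egr2, between 0.29 and 0.44 for Atf3, Egr1, Klf6 and Fos, 0.22 for Nr4a1 and 0.10 for Nr4a3. By the same measure, the 5 genes of 12592 most like the mean of the 9 were Btg2 (r 0.96, Spearman's rho 0.92), an immediate-early antiproliferative gene, Rnh1 (0.96, 0.92), the ribonuclease inhibitor, Cdkn1a (0.95, 0.87), the cell cycle inhibitor p21, Nt5dc2 (0.95, 0.91) and Mt2 (0.95, 0.89), a metallothionein. Without the 2 male animals r for these 5 genes was 0.81 to 0.87.

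In each pain group the animal with the highest neutrophil marker sum was the highest for 5 or more of the 10 genes, while female active pain replicate 2, second by that sum in its group at 73.8 CPM, was lowest for 6 and highest for 0. In controls they were highest in male replicate 3, which was highest for 3 of the 10 genes and lowest for 4, and in female replicate 4, highest for 3 and lowest for 1. The 10 neutrophil markers summed to 3.03 to 9.63 CPM in female and 3.65 to 14.8 CPM in male controls, where Ly6g, a defining marker, was at 0 in all 4 males. In male sedentary pain replicate 1 they summed to 329 CPM against 6.09 to 7.35 in the other 3, and in male active pain replicate 2 to 92.7 CPM against 9.06 to 14.1. In female sedentary pain replicate 2, the highest animal for Junb, Ier3, Egr1, Fosb and Nr4a1, they summed to 286 CPM against 26.2 to 64.8 in the other 3, and in female active pain replicate 3, highest for 6 of the 10 genes, to 122 CPM against 9.27 to 73.8.

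In female sedentary pain the 14 macrophage and monocyte markers had another highest animal than the neutrophil markers, replicate 4. The highest animal was the same for both lists in female active pain (replicate 3) and in female controls (replicate 4). Among females the 14 markers summed to 101 to 214 CPM in controls, 471 to 5151 CPM in sedentary pain and 238 to 498 CPM in active pain. Sedentary pain replicates 3 and 4 lay far above replicates 1 and 2 of that group. Klf6, Atf3, Egr2 and Fos were highest in replicate 4, and Junb, Ier3, Egr1, Fosb and Nr4a1 in replicate 2. In males the sum was 75.03 to 152 CPM in controls, 145 to 860 in sedentary pain, highest in replicate 1, and 233 to 528 in active pain, highest in replicate 2. In female sedentary pain 13 of 14 macrophage markers and 6 of 8 tested neutrophil markers were called higher, as were all 3 tested of the 10 T, NK and B cell markers, which summed to 3.33 to 87.9 CPM against 0.379 to 2.63 in controls and were highest in replicates 3 and 4. The 8 satellite cell and myoblast markers summed to 64.8 to 81.9 CPM, above the 51.95 to 62.9 CPM of all 4 controls, with 2 of 7 tested called higher and 1 lower. The median log2 change of the 7 was -0.30, so the higher sum does not hold for the list as a whole. Of the adipocyte markers 7 of 8 were lower, as were 3 of 6 smooth muscle and pericyte markers, and mitochondrial genes took 5.17 ± 2.41% of counts against 9.26 ± 1.17% in controls. In males the mitochondrial share was 4.53% in sedentary pain replicate 1 against 10.4 to 11.3% in the other 3, and 5.97% in active pain replicate 2 against 8.14 to 12.6%. The 8 satellite cell and myoblast markers summed to 97.6 CPM in the first of these animals against 58.002 to 59.5 in the other 3 of its group, and to 82.0 CPM in the second against 58.3 to 61.4. Over the 8 markers the median log2 change against male controls was -0.24 in sedentary pain and -0.29 in active pain. The part of these shifts in the levels of the immediate-early genes was not tested.

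Other genes of the same pathways were taken from lists made by function. Of 11 further AP-1 genes (Fosl1, Fosl2, Jun, Jund, 3 BATF, 3 small Maf genes and Jdp2) 6 rose and none fell in female sedentary pain against control, with a median log2 change of 1.12 against -0.02 over all genes, of which 19.6% were called higher and 13.9% lower. The 3 with the lowest p were Fosl1 (6.81 ± 0.82, adjusted p 0.00225), a Fos family subunit that went from 0.0624 ± 0.0526 to 8.06 ± 5.67 CPM, and the leukocyte AP-1 factors Batf (5.89 ± 0.99, adjusted p 0.00311) and Batf2 (5.24 ± 1.11, adjusted p 0.00646). Of 4 tested EGR and NR4A relatives and cofactors 1 rose, Nab2 (2.05 ± 0.33, adjusted p 0.00285), the corepressor that EGR proteins induce against themselves. Egr3 (0.90 ± 0.48, adjusted p 0.153) and Nr4a2 (-0.50 ± 0.35, adjusted p 0.274), the third NR4A receptor, did not pass.

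Of 24 other immediate-early genes 15 rose and none fell (median 1.04), among them Plk2, a stress-induced kinase (1.70 ± 0.28, adjusted p 0.00288), Ier5 (1.58 ± 0.30, adjusted p 0.00458) and Ier2 (1.72 ± 0.36, adjusted p 0.00605). Of 19 feedback genes, which switch the inducing pathways off, 9 rose and 2 fell (median 0.39). Socs3, an inhibitor of JAK-STAT signalling, rose by 3.95 ± 0.61 from 2.26 ± 0.32 to 35.6 ± 18.5 CPM (adjusted p 0.0026). The MAP kinase phosphatases Dusp5 (3.69 ± 0.71, adjusted p 0.00458) and Dusp2 (1.74 ± 0.35, adjusted p 0.00548) rose with it. The factors that drive immediate-early transcription were split, with 7 of 20 higher and 2 lower (median -0.12): Stat3 rose by 1.54 ± 0.28 (adjusted p 0.00387), Rela by 1.07 ± 0.21 (adjusted p 0.00509) and Elk3 by 0.70 ± 0.18 (adjusted p 0.0154). Of 17 tested kinases 4 were higher and 2 lower (median -0.25). Beside all of these lists, 19.6% of all genes were called higher and 13.9% lower, and the kinase counts lie close to these shares. Rps6ka5, the kinase MSK1 that phosphorylates CREB, fell by 1.238 ± 0.21 (adjusted p 0.00318), while Mapk7, the kinase ERK5, rose by 1.42 ± 0.25 (adjusted p 0.00344) and Prkcd by 2.80 ± 0.53 (adjusted p 0.00425).

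Between active and sedentary pain in females 4 of the 11 further AP-1 genes were lower and none higher, 1 of 4 EGR and NR4A relatives lower, 7 of 24 other immediate-early genes lower, 5 of 19 feedback genes lower and 1 higher, 3 of 20 upstream factors lower, and 2 of 17 kinases lower and 1 higher, beside the background of 9.41% lower and 2.51% higher. In female active pain against control and in each of the 3 male comparisons no gene of these lists was called by edgeR, where 0% of all genes were called. At an unadjusted p under 0.05 these 6 lists held 10 of 95 tested genes in female active pain against control, beside 7.03% of all genes. In male sedentary pain against control they held 13 of 94, beside 8.84%. In male active pain against control they held 6 of 94, beside 7.25%, and in male active against sedentary pain 0 of 94, beside 0.840%. Of the genes for which it gave an adjusted p, DESeq2 called 0, 1, 0 and 0 in the same order, beside 0.908%, 1.90%, 0.892% and 0% of all genes.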

How the data were processed

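Libraries were prepared from total RNA with a stranded Illumina TruSeq kit and sequenced as paired reads, per the labels' protocols. The deposited files hold raw counts per Ensembl gene for each library, 17612139 to 34039699 in all. The submitters' processing notes name HISAT2 2.1.0, Salmon 0.9.1, featureCounts, DESeq2 1.24.0 and the build GRCm38.p6 (mm10). Which of these tools made the counts, and whether strand was used, is not given in the sources used here, so a gene that overlaps another on the opposite strand is uncertain. Symbols came from the gene name table and positions from GENCODE M21 (54495 of 54532 identifiers matched), and promoter sequences from RefSeq (GRCm38.p6).

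Counts were tested with edgeR 4.0.16 in R 4.3.3 (filterByExpr with a minimum count of 10, TMM scaling, robust quasi-likelihood F test, two-sided), with Benjamini-Hochberg adjustment over all genes tested and a threshold of 0.05. Each sex was fitted on its 12 libraries, and sex differences on all 24. SE is the size of the log2 change over the square root of F, and intervals are 95%. CPM is count over TMM-scaled library total. The fitting script was tested on simulated data. The labels number 4 replicates a group without saying how they were collected, so p-values measure the spread between these libraries. No 2 libraries of a group agreed within sampling noise, the closest pair having a chi-square of 7.41 per degree of freedom.

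The 10 genes, the other lists and the tests were chosen with earlier results of these data known. All 10 genes are described. Of each other list at most 3 genes are named, those with the lowest p in female sedentary pain against control, and the 5 genes most like the set are named by Pearson's r over group-centred log2 CPM (prior count 2, mean CPM of at least 1). Alternatives were RLE scaling, DESeq2 1.42.0, other filters, no robust step, a block by replicate number or by library number, 1 surrogate variable (sva 3.50.0), other sets of libraries and each library left out in turn. Chosen after seeing the data were offsets for GC content and exon length, replicates 1 and 2 or 3 and 4 alone, and leaving out the 2 male libraries that stand apart.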

Additional observations from a re-analysis of the deposited data

Results flagged for a closer look

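In each group of 4, an animal was singled out where its gap to the nearest other animal took up most of the range of the group (Dixon's test at the 95% level). This marked 12 of the 60 gene and group combinations, where chance marks about 1 in 20, and the genes of 1 animal are not independent. Male sedentary pain replicate 1 was singled out for 7 genes as the highest of its group, with Junb at 155 CPM, Egr1 at 42.0, Ier3 at 41.3, Atf3 at 32.1, Fos at 10.3, Fosb at 2.99 and Egr2 at 2.67 CPM. Male active pain replicate 2 was singled out for 3 genes, with Junb at 44.0, Atf3 at 37.2 and Egr1 at 27.8 CPM. The other 2 were Fosb in female sedentary pain replicate 2, at 2.86 CPM, and Egr1 in female control replicate 3, at 10.3 CPM.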

How the results depend on the processing

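Over the alternatives run, the count of the 10 genes called in female sedentary pain against control was 5 to 8 except for 0 with 1 surrogate variable and 1 within replicates 1 and 2. Fits with each library left out gave 5 to 8. In female active against sedentary pain the count of 5 became 0 with no filter on low counts, 0 with 1 surrogate variable, 0 when the 2 groups were fitted alone, 1 in a fit of all 24 libraries, 0 within replicates 1 and 2 and 2 within replicates 3 and 4, and ranged from 0 to 7 with each library left out. Of all genes, 0.667%, 0%, 0%, 15.7%, 0% and 15.0% were called in the first 6 of these fits. The cause was not tested. The sex difference of sedentary pain had 1 gene within replicates 3 and 4 and 2 without the 2 male libraries, and that of active against sedentary pain 0 to 5 with each library left out. A replicate block gave 7 and 4 genes in these female comparisons and 0 in the others: Fos was added in both, Egr2 was not called in the first (adjusted p 0.060), nor Fosb and Egr1 in the second (0.0898 and 0.0557). A library-number block gave 8 and 6, with Fos added in both. Of all 14511 genes the replicate block called 3739 and 1629 and the library-number block 5390 and 2745. Whether the replicate numbers pair the libraries is not stated, and the correlations do not settle it. Same-numbered libraries correlated above 0.1 in 6 of 12 female and 4 of 12 male pairs. A library correlated best with its own number in 6 and 5 of 24 comparisons.

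Signs that changed belonged to values that were not called, apart from Egr2 in female sedentary pain. With 1 surrogate variable the log2 change became -0.068 for Fos, -0.14 for Egr2 and 0.054 for Nr4a1 in female sedentary pain, 0.51 for Egr2 in female active against sedentary pain and 0.29 for Nr4a3 in female active pain. It became -0.093 for Junb, -0.082 for Egr1, -0.63 for Egr2, -0.22 for Atf3 and -0.50 for Ier3 in male sedentary pain, and -0.29 for Junb, -0.15 for Egr1, -0.57 for Egr2, -0.27 for Atf3, -0.41 for Nr4a3, -0.75 for Ier3 and -0.12 for Klf6 in male active pain. Within replicates 1 and 2 it was 0.033 for Fos and -0.46 for Atf3 in female active pain and 0.084 for Nr4a1 in male active pain. Within replicates 3 and 4 it was 0.074 for Egr1 and 0.99 for Nr4a3 in female active pain, 0.74 for Nr4a3 in female active against sedentary pain, -0.041 for Egr1, -0.0075 for Egr2 and -0.18 for Ier3 in male sedentary pain, and -0.26 for Fos, -0.0082 for Fosb, -0.15 for Egr2 and -0.15 for Ier3 in male active pain. Nr4a3 in female active pain was 0.20 with a replicate block and 0.12 with a library-number block. Without the 2 male libraries, Egr2 was -0.27 and Ier3 -0.13 in male sedentary pain, and Egr2 -0.04 and Nr4a3 -0.20 in male active pain. With each library left out, Fos ranged from -0.55 to 0.089, Egr1 from -0.30 to 0.30 and Nr4a3 from -0.37 to 0.19 in female active pain, Egr2 from -0.27 to 1.26 and Ier3 from -0.13 to 2.08 in male sedentary pain, Egr2 from -0.043 to 0.93, Nr4a1 from -0.32 to 0.0042 and Nr4a3 from -0.21 to 0.99 in male active pain, and the Junb sex difference of sedentary pain from -3.15 to 0.040. Depth limits Fosb (1 to 74 counts) and Egr2 (6 to 100 counts) most.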
